A study of Xenopus tropicalis with 27 samples.

Results

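Hedgehog proteins are secreted signals, and 9 genes that send, help or relay them are described here in the brains of Xenopus tropicalis tadpoles: the ligands shh, ihh and dhh, the ligand helpers scube2 and cdon, and the transducers smo, sufu, gli2 and gli3. They were taken by gene symbol, and all 9 had a row in both tables, among 16212 genes in the drug table and 16049 genes in the time course table. When a Hedgehog ligand binds its receptor Patched, the membrane protein Smoothened (smo) is freed to act, and Gli transcription factors turn on target genes. Without ligand, Sufu holds Gli proteins back, and Gli3, and to a lesser extent Gli2, is cut to a repressor. In the vertebrate brain, Sonic hedgehog (shh) from the floor plate and ventral forebrain patterns the ventral side and keeps progenitors dividing.

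RNA was sequenced from 27 libraries in 9 groups of 3. In the drug table, brains were collected at stage 46 from tadpoles kept from stage 30 on in 10 µM β-estradiol, an estrogen, in 5 µM cyclopamine, a plant alkaloid that binds and blocks Smoothened, or in DMSO, the control, and each library pooled 3 brains. The time course table held untreated wildtype brains at stages 40, 42, 44, 45, 46 and 47. Total counts were 17.64 to 28.48 M per drug library and 12.94 to 48.27 M per time course library, so that 3 counts corresponded to 0.1048 to 0.1714 and 0.06488 to 0.2307 CPM (counts scaled to 1 M counts per library). Levels below are CPM after TMM scaling (which corrects for composition), given per library or as mean ± SD over 3 libraries. Differences are log2 fold changes ± SE from edgeR's quasi-likelihood test, called at an adjusted p under 0.05 over all genes of a table. Replicates were separate samples, but the sources do not say whether they came from separate clutches, so p-values measure the spread between these samples, which may be technical. Levels were not compared between genes, since gene lengths were not used here.

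The label brain was checked against 12 neural markers. The 11 that were measured summed to between 6950 and 11100 CPM in every group, and none was at 0 counts. Markers of other tissues were present as well. In the drug libraries, 9 skeletal muscle genes summed to between 10.2 and 14.6 CPM in DMSO, to between 25.5 and 49.4 CPM in estradiol and to 164, 144 and 81.8 CPM in cyclopamine replicates 1, 2 and 3. The 5 measured epidermis genes summed to between 51 and 59.7 CPM in DMSO and to 58, 118 and 242 CPM in the same cyclopamine libraries. In the time course, 8 melanocyte genes summed to between 110 and 163 CPM at stage 40. At stage 47 they summed to between 21.4 and 24.6 CPM, with 7 lower and 1 higher. Retina and lens genes went from between 69.9 and 91.7 CPM to between 33.5 and 43.5 CPM (4 of 7 lower, 1 higher). Muscle genes ran from 26.4 to 202 CPM among stage 44 libraries. Their part in the changes by stage was not tested. Of the measured markers of each of these lists, none was at 0 counts in any group. Low genes had been removed before deposit, so this check, for brain markers too, could seldom fail. Most of the epidermis sum in DMSO came from 1 gene, dsp (mean 54.3 CPM).

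Over development most of the 9 genes fell. Between stage 40 and stage 47, 6 fell and 1, dhh, rose, while 80.8% of all genes tested were called, 40% higher and 40.8% lower. In 7 genes all stage 47 libraries lay below all stage 40 libraries and in 2 above them, where 41.2% and 40.5% of all genes did so. The median log2 difference was -0.70 for the 9 genes and -0.01 for all genes. By the test for any difference among the 6 stages 8 of 9 changed, against 88.4% of all genes, so the share of the 9 that moved was near the background. The plot of levels by stage shows each library.

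**Figure D1:**
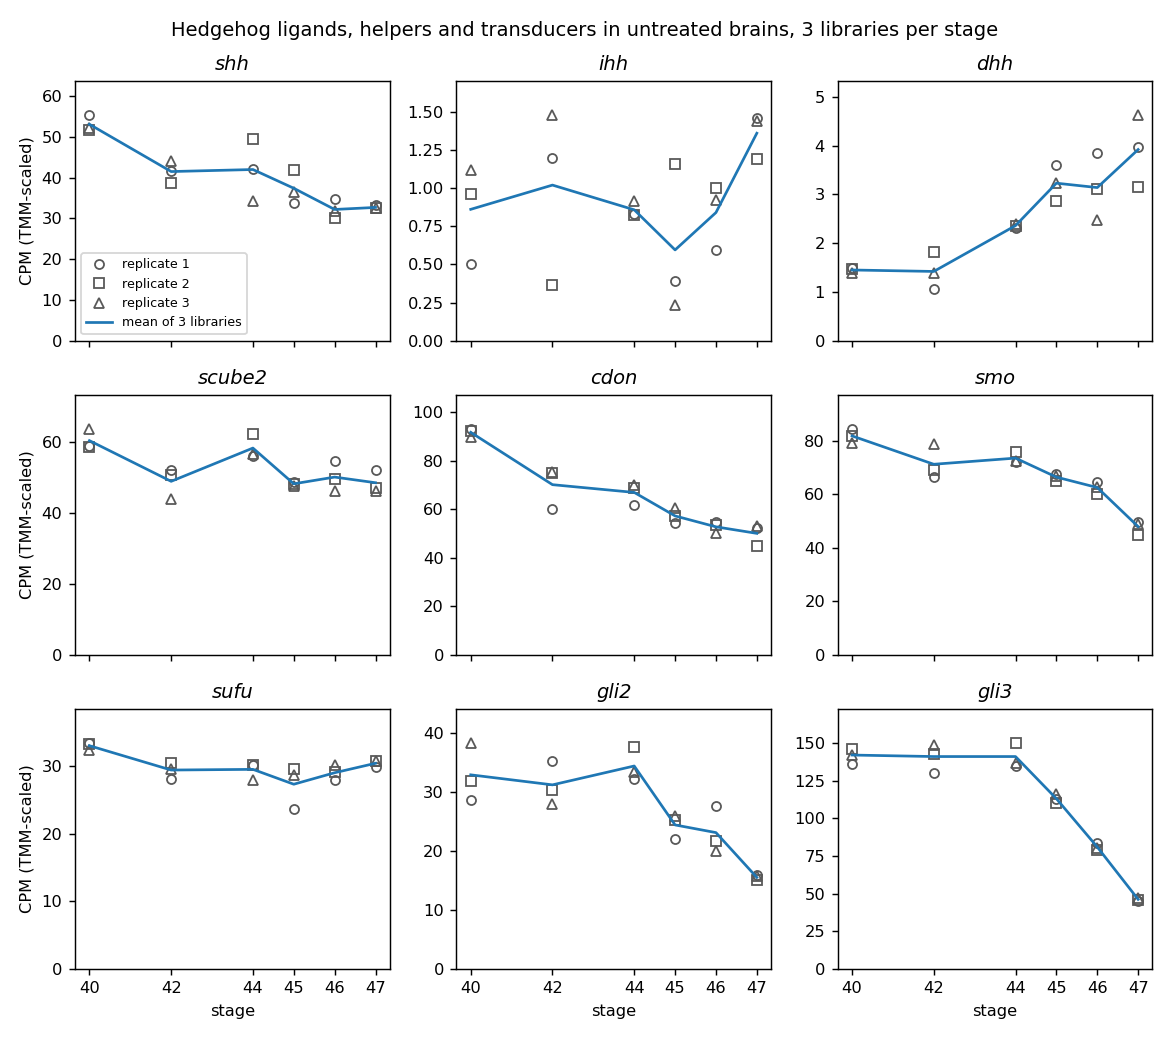
Levels of the 9 genes (CPM, TMM-scaled, vertical axes from 0) in untreated brains against stage, with 1 symbol per library and a line through the means of 3 libraries. The gli3 line is flat to stage 44 and then drops from 141 to 46.1 CPM at stage 47, shh and cdon drop early, and dhh climbs from 1.45 to 3.92 CPM.

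Among the ligands, shh was highest at the first stage. It stood at 55.4, 51.7 and 52.1 CPM in the 3 stage 40 libraries and at 33.3, 32.5 and 32.5 CPM at stage 47. The groups did not overlap, and every library of a later stage lay below every stage 40 library. The difference was -0.70 ± 0.10 (edgeR adjusted p = 9.44e-07), a 1.62-fold fall. Means were 41.5 ± 2.64 CPM at stage 42, 42 ± 7.69 at stage 44, 37.4 ± 4.11 at stage 45 and 32.2 ± 2.32 at stage 46. Of the adjacent steps, the first passed for shh (-0.35 ± 0.10, edgeR adjusted p = 0.00491). The 9 measured markers of the floor plate and ventral midline, where shh is made, summed to between 413 and 450 CPM at stage 40 and to between 259 and 283 CPM at stage 47, with 8 of 9 lower. In whole brains, fewer cells of a type and less RNA per cell cannot be told apart, here and in all results that follow.

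The ligand dhh, which Schwann cells of peripheral nerve make in mouse, went the other way. Its level was 1.5, 1.47 and 1.38 CPM at stage 40 and 3.97, 3.16 and 4.63 CPM at stage 47, on 26 to 100 counts per library. The groups did not overlap, and the difference was 1.45 ± 0.21 (edgeR adjusted p = 1.52e-06), a 2.72-fold rise that 14.5% of all genes equalled or exceeded. Means were 1.42 ± 0.381 CPM at stage 42, 2.36 ± 0.0454 at stage 44 and 3.23 ± 0.371 at stage 45, and no single adjacent step passed. The step from stage 42 to 44 was the largest (0.73 ± 0.23, edgeR adjusted p = 0.0914). The 8 measured markers of Schwann cells and nerve summed to between 199 and 218 CPM at stage 40 and to between 349 and 393 CPM at stage 47, with 4 higher and 2 lower. Their part in the result was not tested.

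The ligand ihh, known from growing cartilage and gut, rested on 3 to 52 counts per library. It stood at 0.5, 0.959 and 1.12 CPM at stage 40 and at 1.46, 1.19 and 1.44 CPM at stage 47. These values did not overlap, but the test did not pass (0.59 ± 0.40, 95% interval -0.25 to 1.43, edgeR adjusted p = 0.18). At stage 45 the 3 libraries held 8, 24 and 3 counts. Without stage 45 replicate 2, the library with 24 counts, ihh passed the test for any difference among the stages.

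Both ligand helpers fell. The Scube2 protein is secreted and, in zebrafish and mammalian cells, helps to free the lipid-bearing ligand from the cell that made it. Its transcript was at 58.9, 58.6 and 63.8 CPM at stage 40 and at 52.3, 47 and 46.3 CPM at stage 47. The groups did not overlap, by a small margin, and the fall was -0.32 ± 0.07 (edgeR adjusted p = 0.000447), the smallest of the 6. The path was uneven: scube2 fell from stage 40 to 42 (-0.31 ± 0.07, adjusted p = 0.00175), stood at 56.2, 62.3 and 56.7 CPM at stage 44 against 52.2, 50.7 and 44 CPM at stage 42, and fell again by stage 45 (-0.27 ± 0.08, adjusted p = 0.0116, or 0.0522 without stage 44 replicate 2). The return at stage 44 did not pass in edgeR (0.25 ± 0.08, adjusted p = 0.0747).

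The co-receptor cdon, which binds ligand at the cell surface in mouse, fell more. It stood at 93.2, 92.5 and 89.7 CPM at stage 40 and at 52.4, 44.9 and 53.1 CPM at stage 47. The groups lay far apart, and the fall was -0.87 ± 0.08 (edgeR adjusted p = 8.2e-10), or 1.83-fold. The first step was again the largest for cdon (-0.39 ± 0.08, adjusted p = 0.000387), with means of 70.2 ± 8.8 CPM at stage 42, 67 ± 4.34 at stage 44, 57.3 ± 3.16 at stage 45 and 52.8 ± 2.36 at stage 46. The step from stage 44 to 45 passed narrowly (-0.23 ± 0.08, adjusted p = 0.0466). That call was lost without stage 44 replicate 2 or 3 and without stage 45 replicate 1 or 2, and with the replicate number as a block, with an adjusted p of up to 0.167.

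Of the transducers, gli3 fell most. Gli3 is the main Gli repressor in mouse limb and brain. Its level was 136, 146 and 142 CPM in the stage 40 libraries, 130, 143 and 149 at stage 42, and 135, 150 and 137 at stage 44. It then stood at 113, 110 and 116 CPM at stage 45, at 83.6, 78.7 and 80.4 at stage 46 and at 45.2, 45.7 and 47.3 at stage 47. The first 3 stages overlapped fully, and from stage 44 on each stage lay wholly below the one before. The steps were -0.32 ± 0.06 to stage 45 (edgeR adjusted p = 0.000484), -0.48 ± 0.06 to stage 46 (adjusted p = 9.5e-07) and -0.81 ± 0.06 to stage 47 (adjusted p = 2.3e-10). From stage 40 to 47 gli3 fell by 1.62 ± 0.06 on the log2 scale (3.07-fold, adjusted p = 6.45e-17), and 7.36% of all genes fell as much or more.

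The related factor gli2, the main Gli activator in mouse, fell later too, but with more spread. It stood at 28.6, 31.9 and 38.3 CPM at stage 40 and at 15.9, 15 and 15.7 CPM at stage 47. These groups did not overlap, and the fall was -1.10 ± 0.12 (edgeR adjusted p = 2e-08), or 2.14-fold. For gli2 the steps to stage 45 (-0.50 ± 0.12, adjusted p = 0.00438) and to stage 47 (-0.57 ± 0.12, adjusted p = 0.000734) passed, and the step between them did not (-0.08 ± 0.12, adjusted p = 0.614).

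The receptor-side transducer smo was at 84.4, 81.8 and 79.1 CPM at stage 40 and at 49.8, 44.9 and 48.9 CPM at stage 47. All stage 47 libraries lay below every library of the 5 earlier stages, and the fall was -0.77 ± 0.06 (edgeR adjusted p = 1.23e-10), or 1.71-fold. The largest step was the last (-0.38 ± 0.07, adjusted p = 4.12e-05). A first step of smo from stage 40 to 42 (-0.20 ± 0.06, adjusted p = 0.013) was lost without stage 40 replicate 1 or stage 42 replicate 1 or 2, and in a fit of only these 2 groups, with an adjusted p of up to 0.0893.

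The Gli inhibitor sufu held nearest to its starting level. It stood at 33.4, 33.3 and 32.4 CPM at stage 40 and at 29.8, 30.7 and 30.8 CPM at stage 47. The groups did not overlap, yet the difference did not pass (-0.12 ± 0.07, 95% interval -0.27 to 0.04, edgeR adjusted p = 0.155). The lowest mean was 27.3 ± 3.11 CPM at stage 45. The test for any difference among the 6 stages called sufu at an adjusted p of 0.0408, a call lost in 11 of the 18 fits that left out 1 library, with an adjusted p of up to 0.114.

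By adjacent step, edgeR made these calls. From stage 40 to 42, 4 fell (shh, scube2, cdon and smo), where 22.4% of all genes fell and 47% were called. From stage 42 to 44 edgeR called 0 members and 2.32% of all genes, with 2 members (scube2 and dhh) at an unadjusted p under 0.05. Of all genes, 4.31% had an edgeR p as low as that of dhh (0.00394), the higher of these. DESeq2 called 1 member in that step (scube2), and 597 of 15426 genes in all. From stage 44 to 45, 4 fell (scube2, cdon, gli2 and gli3; 22.8% of genes called, 11.2% lower). Without stage 44 replicate 2, 2 of these calls were left, gli2 and gli3. From stage 45 to 46, gli3 alone fell (42.1% of genes called, 22.9% lower), with shh at -0.22 ± 0.10 and an edgeR adjusted p of 0.091. Without stage 45 replicate 1, both gli3 and shh were called there. From stage 46 to 47, smo, gli2 and gli3 fell (48.8% of genes called, 25.8% lower).

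Genes of dividing cells moved over the same stages as gli3. The 9 measured cycling-cell genes summed to between 1240 and 1260 CPM at stage 40, to between 1440 and 1570 at stage 44, to between 1120 and 1180 at stage 45, to between 678 and 860 at stage 46 and to between 136 and 147 at stage 47. All 9 were lower at stage 47 than at stage 40, with a median of -4.20 on the log2 scale, and their part in the fall of the members was not tested.

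For each of 5 members, the 3 genes with the most similar course over the 18 time course libraries were found among 11557 genes by Pearson correlation of log2 CPM. These libraries share stage, so the values describe likeness of course and carry no test. Nearest to shh were foxa1 (r = 0.932), a floor plate factor, prpf38b (0.93) and zfp36l1 (0.927). Nearest to gli3 were psmd1 (0.991), a proteasome subunit, nrdc (0.99) and rif1 (0.99), which acts in the timing of DNA replication. The correlation does not measure the size of a change. From stage 40 to 47 gli3 changed by -1.62 on the log2 scale, psmd1 by -1.63, rif1 by -1.42 and nrdc by -3.08. Nearest to gli2 were hacd2 (0.969), myh10 (0.967) and efnb1 (0.965), and nearest to smo were tdrd3 (0.973), tead4 (0.971) and nucks1 (0.971). For scube2, whose course was uneven, the closest were ubr4 (0.869), scrib (0.866) and plxnb1 (0.858).

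The comparison of cyclopamine with DMSO asks what blocking Smoothened changes. Of the 9 genes, 2 rose, scube2 and cdon, and none fell, where 19.6% of all genes were called, 9.97% higher and 9.59% lower. Another scaling, by relative log expression, changed the balance over all genes from 1616 higher and 1555 lower to 1763 higher and 862 lower, and left the same 2 members called. The median log2 difference was 0.19 for the 9 genes and -0.08 for all genes. In 3 of the 9 (scube2, cdon and gli2) all cyclopamine libraries lay above all DMSO libraries, where 19% of all genes did so. The plot of levels by drug group shows each library and the plot of fold changes shows the intervals, and members were not tested against each other.

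**Figure D2:**
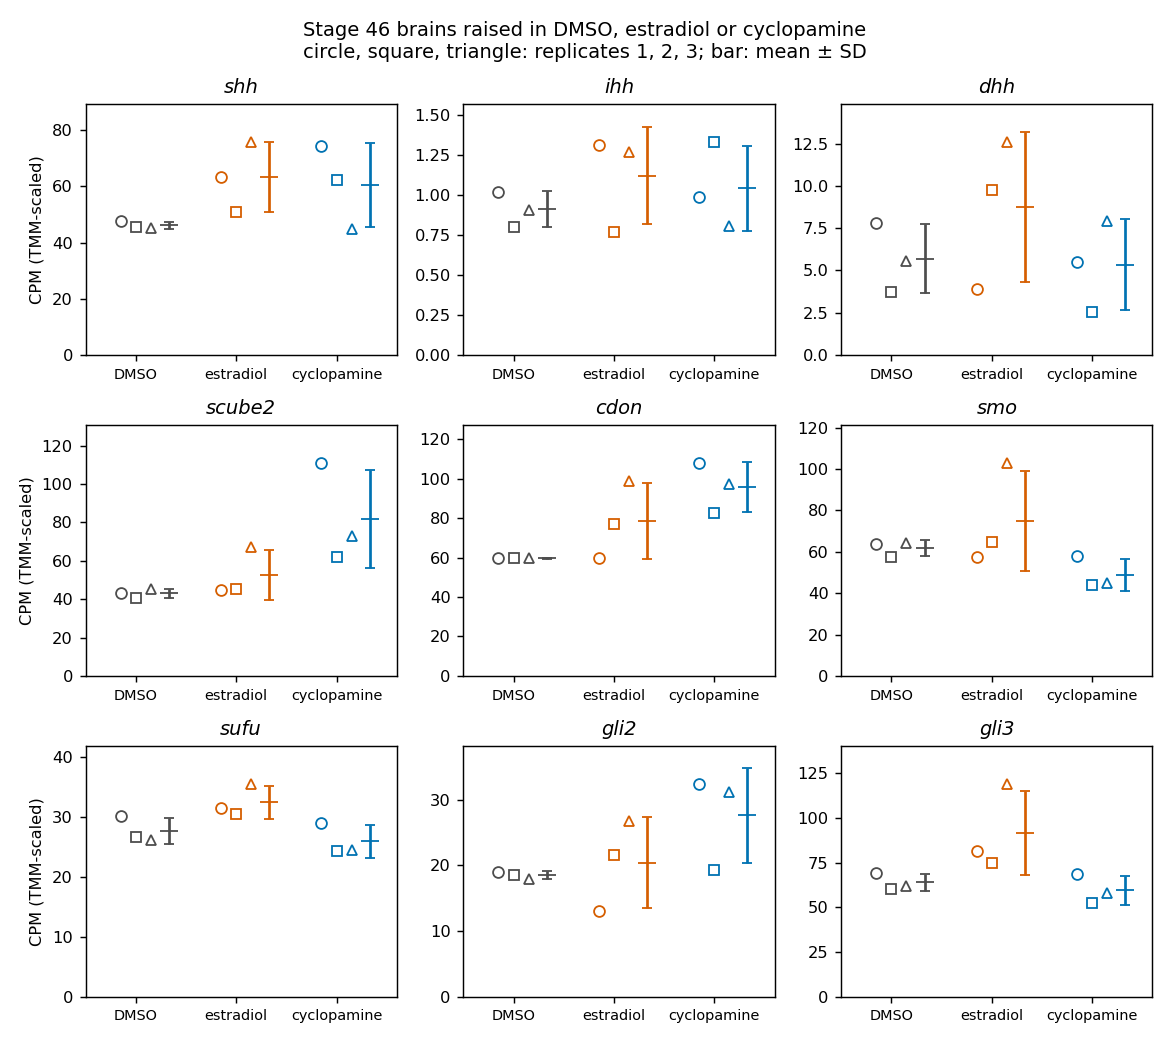
Levels of the 9 genes (CPM, TMM-scaled, vertical axes from 0) in stage 46 brains from DMSO, estradiol and cyclopamine, with 1 symbol per library and a bar at the mean ± SD of 3 libraries. DMSO libraries lie close together except for dhh, the 3 cyclopamine libraries of scube2 (62 to 111 CPM) and cdon (82.5 to 108 CPM) lie above DMSO, and estradiol replicate 3 is the highest library for smo and gli3.

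The ligand-releasing scube2 stood at 43, 40.7 and 45.4 CPM in DMSO and at 111, 62 and 72.8 CPM in cyclopamine. The lowest cyclopamine library was above the highest control, and replicate 1 was the highest of all. The rise was 0.93 ± 0.22 (95% interval 0.45 to 1.40, edgeR adjusted p = 0.0161), or 1.90-fold. The call was lost without DMSO replicate 1 or 2 (adjusted p of 0.0651 and 0.0653). Those fits called 1127 and 1337 genes in all, against 3171 in the main fit. Over all settings the difference ran from 0.70, without cyclopamine replicate 1 (adjusted p = 0.0307), to 1.45. The latter was with replicate 1, the cyclopamine library lowest in epidermis genes and highest in muscle genes, as the only one of its group (adjusted p = 0.00396), 1 library then being assumed to vary like the other groups.

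The co-receptor cdon stood at 59.7, 59.6 and 60 CPM in DMSO and at 108, 82.5 and 97.3 CPM in cyclopamine. The groups lay well apart, and the rise was 0.68 ± 0.16 (95% interval 0.32 to 1.04, edgeR adjusted p = 0.0175), or 1.60-fold. The DMSO libraries differed by less than counting error alone gives (a coefficient of variation of 0.319% against 2.97%). The cdon call was lost without DMSO replicate 1, 2 or 3 (adjusted p of 0.0685, 0.0648 and 0.0565), at a difference of 0.68 each time. Those fits called 1127, 1337 and 1767 genes in all, against 3171 in the main fit. In mouse, Cdon and the co-receptor Gas1 are known to be lowered by Hedgehog signalling. In these brains gas1 did not pass (0.12 ± 0.15, edgeR adjusted p = 0.586). The cause of the rise of cdon was not tested.

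Among the ligands, shh stood at 47.6, 45.5 and 45.3 CPM in DMSO and at 74.4, 62.1 and 44.8 CPM in cyclopamine. The first 2 cyclopamine libraries were above the controls and the last was below them. The test did not pass (0.39 ± 0.18, 95% interval -0.01 to 0.79, edgeR adjusted p = 0.147). Without cyclopamine replicate 3, shh was called at 0.63 (edgeR adjusted p = 0.0394). Replicate 3 was the library highest in epidermis genes and lowest in floor plate genes (232 CPM, against 303 and 296 in replicates 1 and 2 and 365 to 376 in DMSO). Of the 9 measured floor plate markers, 1 was higher and 3 were lower with cyclopamine than in DMSO, with a median log2 difference of -0.16. The floor plate list holds foxa2 and nkx2-1, which are also counted as targets below. Mean nkx2-1 was 36.4 CPM in DMSO and 9.58 CPM in cyclopamine. Replicate 1, highest for shh, was highest in muscle (164 CPM), melanocyte (127 CPM), endothelium (478 CPM) and leukocyte (122 CPM) markers. The part of these differences in the level of shh was not tested.

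The level of dhh varied too much between like libraries to compare. It was 7.78, 3.71 and 5.57 CPM in DMSO, 3.89, 9.78 and 12.6 CPM in estradiol and 5.5, 2.56 and 7.92 CPM in cyclopamine, and the 3 groups overlapped. Its coefficient of variation was 35.8% in DMSO, where counting error gives 9.56%. The difference of cyclopamine from DMSO was -0.10 ± 0.49, with a 95% interval of -1.18 to 0.99 (edgeR adjusted p = 0.903). The ligand ihh rested on 14 to 27 counts per library, at 0.8 to 1.02 CPM in DMSO and 0.807 to 1.33 CPM in cyclopamine, and did not pass (0.19 ± 0.34, adjusted p = 0.71).

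Of the transducers, smo, whose protein cyclopamine binds, stood at 64, 57.3 and 64.4 CPM in DMSO and at 58, 44.1 and 44.7 CPM in cyclopamine. One cyclopamine library reached into the range of the controls. The difference did not pass (-0.34 ± 0.20, 95% interval -0.77 to 0.10, edgeR adjusted p = 0.234). For gli2 the values were 19, 18.5 and 17.9 CPM in DMSO and 32.4, 19.3 and 31.1 CPM in cyclopamine. All cyclopamine values were higher, replicate 2 by little, and the test did not pass (0.58 ± 0.25, 95% interval 0.03 to 1.14, adjusted p = 0.122). In a fit of only these 2 groups gli2 was called at 0.65 (adjusted p = 0.0265). That fit called 4682 of 16122 genes in all, against 3171 of 16212 in the main fit.

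Neither gli3 nor sufu passed. The level of gli3 was 69.1, 60.4 and 62.1 CPM in DMSO and 68.4, 52.3 and 57.8 CPM in cyclopamine (-0.10 ± 0.17, 95% interval -0.47 to 0.27, edgeR adjusted p = 0.686). That of sufu was 30.2, 26.6 and 26.1 CPM in DMSO and 29, 24.3 and 24.4 CPM in cyclopamine (-0.09 ± 0.12, 95% interval -0.35 to 0.16, adjusted p = 0.577). In both genes the groups overlapped.

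**Figure D3:**
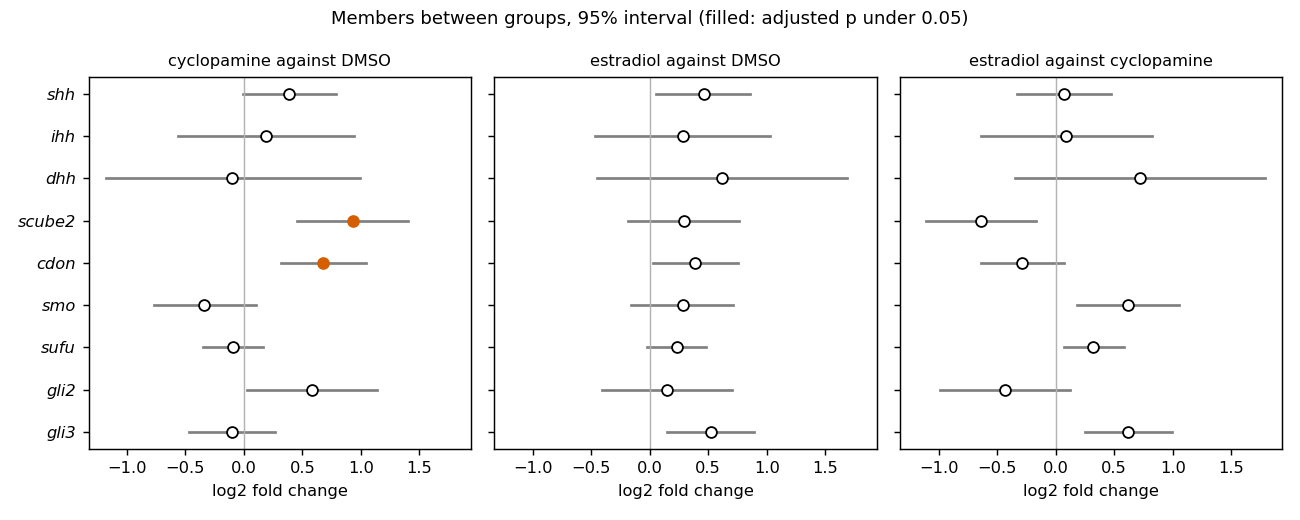
Log2 fold change (horizontal axis) of each of the 9 genes with its 95% interval for cyclopamine against DMSO, estradiol against DMSO and estradiol against cyclopamine; filled points passed the edgeR test. The filled points are scube2 at 0.93 and cdon at 0.68 with cyclopamine, all 9 points lie above 0 for estradiol, and dhh has the widest intervals.

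Other cell types differed between these groups as well. Of 10 endothelium markers 9 were higher with cyclopamine, with sums of 329 to 478 CPM against 175 to 194 CPM in DMSO. All 8 measured leukocyte markers were higher (91 to 122 CPM against 34.1 to 41.8 CPM), as were 8 of 9 muscle markers. Of 9 cycling-cell genes 6 were lower, with sums of 131 to 133 CPM against 254 to 303 CPM. Of 8 melanocyte markers 6 were higher (45.6 to 127 CPM against 23.3 to 23.7 CPM). Brain markers summed to 7540 to 7930 CPM against 8330 to 8820 CPM in DMSO, with 3 of 11 lower and 0 higher. Retina and lens markers summed to 16 to 36.1 CPM against 57.8 to 60.1 CPM, with 2 of 8 lower and 0 higher. In cyclopamine replicates 1, 2 and 3 scube2 stood at 111, 62 and 72.8 CPM and cdon at 108, 82.5 and 97.3 CPM. In the same order melanocyte markers were at 127, 45.6 and 107 CPM, endothelium markers at 478, 329 and 343 CPM and leukocyte markers at 122, 91 and 99.4 CPM, and in all 3 lists, as in both genes, replicate 1 was highest and replicate 2 lowest. That order was not particular to them: smo, sufu, gli2 and gli3, which were not called, had it too. Schwann cell and nerve markers (364, 305 and 347 CPM) and red blood cell markers (508, 363 and 397 CPM) shared it. Muscle markers, at 164, 144 and 81.8 CPM, and epidermis markers, at 58, 118 and 242 CPM, had other orders, as did the other marker lists. The part of these cell types in the rise of scube2 and cdon was not tested.

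With estradiol, edgeR called 0 of the 9 genes, where 2.07% of all genes were called, 1.23% higher. An unadjusted p under 0.05 was found for 3 (shh, cdon and gli3). Of all genes, 18.3% had an edgeR p as low as that of cdon (0.0344), the highest of these. DESeq2 called 1 member, gli3, and 1451 of 16202 genes in all. All 9 differences were above 0, with a median of 0.29 against 0.01 for all genes, and in 3 (shh, sufu and gli3) all estradiol libraries lay above all controls, where 13.8% of all genes did so. The comparison shares its DMSO libraries with that of cyclopamine. Leukocyte markers summed to 62.6 to 99.8 CPM with estradiol against 34.1 to 41.8 CPM in DMSO, with 5 of 8 higher. Also higher were 2 of 9 muscle, 2 of 8 melanocyte, 1 of 6 red blood cell and 1 of 9 cycling-cell markers, but 0 of 10 endothelium markers. Floor plate and ventral midline markers summed to 302 to 361 CPM against 365 to 376 CPM in DMSO, with 2 of 9 lower and 0 higher. The median log2 difference of this list was 0.03. Within it, mean nkx2-1, also counted as a target, was 36.4 CPM in DMSO and 9.79 CPM in estradiol. Mean foxa2 was 24.5 CPM in DMSO and 25.4 CPM in estradiol. The part of all these markers in the differences was not tested. Estradiol libraries differed among themselves: cycling-cell genes summed to 420, 327 and 794 CPM in replicates 1, 2 and 3, and replicate 3 was the highest of the 3 for 8 of the 9 genes, all but ihh.

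The repressor gli3 had the lowest p. It stood at 81.2, 75 and 119 CPM in estradiol against 60.4 to 69.1 CPM in DMSO. All estradiol libraries were higher, the third by far, and the difference was 0.52 ± 0.17 (95% interval 0.15 to 0.89, edgeR adjusted p = 0.117). Without estradiol replicate 3 it was 0.32 (adjusted p = 0.213), and without estradiol replicate 2 it was 0.65 and was called (adjusted p = 0.0443). The fit without replicate 2 called 1510 genes in all, against 335 in the main fit.

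For shh the estradiol values were 63.3, 50.9 and 75.8 CPM, all above the controls, at a difference of 0.46 ± 0.18 (edgeR adjusted p = 0.18). For cdon they were 59.9, 76.8 and 98.7 CPM, of which the first lay among the controls (0.39 ± 0.16, adjusted p = 0.188). For scube2 they were 44.7, 45.5 and 67.4 CPM, the first of which overlapped DMSO (0.29 ± 0.22, adjusted p = 0.451). The transducer smo was at 57.7, 64.8 and 103 CPM (0.28 ± 0.20, adjusted p = 0.425), and gli2 at 13, 21.6 and 26.7 CPM (0.15 ± 0.25, adjusted p = 0.76). In smo and gli2 the first library lay at or below the controls and the last far above them. The values of sufu were the tightest, at 31.5, 30.4 and 35.5 CPM (0.23 ± 0.11, adjusted p = 0.263). For dhh the difference was 0.62 ± 0.48 (95% interval -0.45 to 1.69) and for ihh it was 0.28 ± 0.34.

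When estradiol was compared with cyclopamine itself, edgeR called 0 of the 9 genes, where 6.77% of all genes were called. Over all genes the split was 675 higher and 422 lower in estradiol, or 473 and 516 with relative log expression scaling. An unadjusted p under 0.05 was found for 4 (gli3, smo, scube2 and sufu). Of all genes, 14% had an edgeR p as low as that of sufu (0.0169), the highest of these. DESeq2 called 2 members, gli3 higher and scube2 lower in estradiol, and 1782 of 16202 genes in all. The nearest to the threshold was gli3, at 0.62 ± 0.17 (adjusted p = 0.0522), then smo at 0.62 ± 0.20 (adjusted p = 0.0896). Libraries of the drugs did not overlap in gli3 and sufu, and the share of all genes without overlap is not given here. The helper scube2 was lower in estradiol by -0.64 ± 0.21 (adjusted p = 0.102) with 1 estradiol library inside the cyclopamine range. Leaving out single libraries gave between 0 and 2 calls. Without estradiol replicate 1 smo was called, without replicate 2 gli3, and without replicate 3 cdon and scube2. With cyclopamine replicate 1 alone in its group scube2 was called.

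The ratio of gli3 to gli2 within a library does not depend on the scaling between libraries, and its changes do not depend on gene length. Its log2 value was 1.86, 1.70 and 1.79 in DMSO, 2.64, 1.79 and 2.15 in estradiol and 1.08, 1.43 and 0.89 in cyclopamine. Every cyclopamine library was below every DMSO library, a difference of -0.65 between means of 1.13 ± 0.27 and 1.78 ± 0.08 (n = 3 each, exact permutation test over libraries, 2-sided p = 0.1, the smallest that 3 against 3 allows). Estradiol and DMSO overlapped, with a difference of 0.41 (exact permutation p = 0.3). Between the drugs the difference was 1.06 (exact permutation p = 0.1), with no overlap. In the time course the ratio was 2.11 ± 0.19 at stage 40, 2.21 ± 0.12 at stage 45, 1.82 ± 0.21 at stage 46 and 1.56 ± 0.05 at stage 47. Stage 47 lay below stage 40 in every library, by -0.55 (exact permutation p = 0.1).

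**Figure D4:**
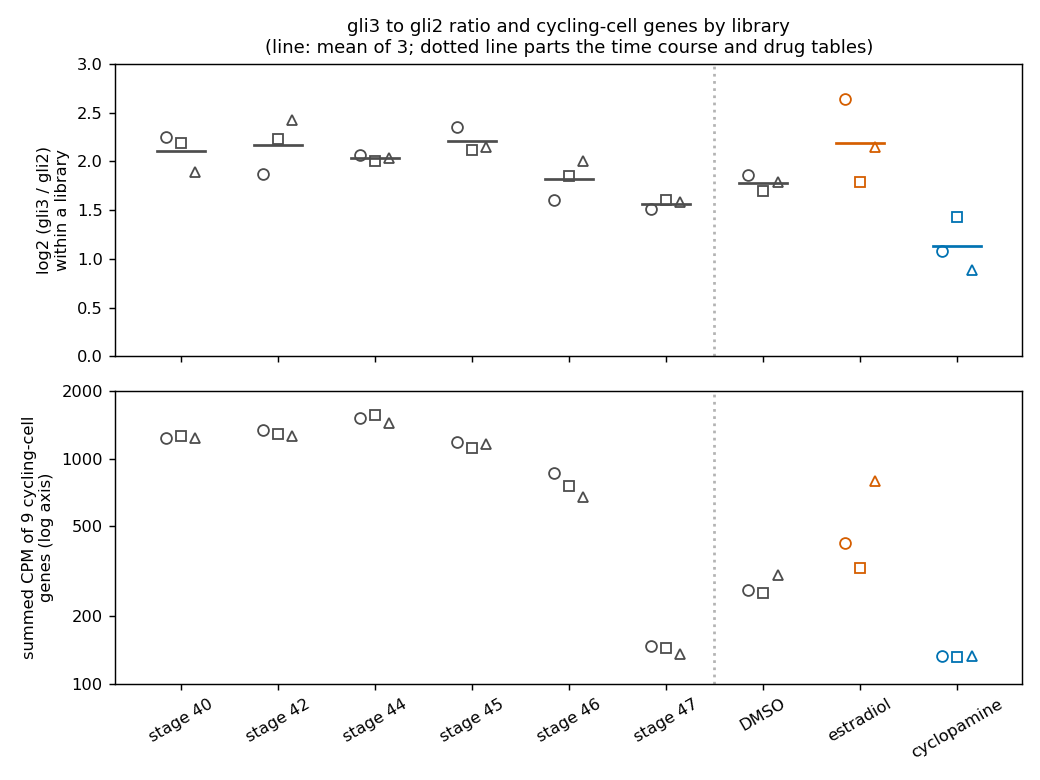
Upper panel: log2 ratio of gli3 to gli2 within each library (symbols) with the mean of 3 (line); lower panel: summed CPM of 9 cycling-cell genes in the same libraries on a log axis. Ratios run from 0.89 to 1.43 in cyclopamine against 1.70 to 1.86 in DMSO, and cycling-cell sums from 131 to 133 CPM against 254 to 303 CPM.

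Other genes of the pathway give the setting of these results. Of a list of 38, 35 were measured in both tables, and boc, scube3 and grk2 were not analysed here. With cyclopamine 11 of the 35 fell and none rose, where 9.59% of all genes fell and 9.97% rose. The 7 that fell among 9 receptors and targets were the receptor ptch1 (-1.49 ± 0.12), the ligand antagonist hhip (-4.33 ± 0.34), the effector gli1 (-6.06 ± 0.32), and the ventral factors nkx2-2 (-1.69 ± 0.15), nkx2-1 (-1.93 ± 0.24), olig2 (-1.10 ± 0.13) and nkx6-1 (-0.41 ± 0.12). The level of gli1 rested on 4 to 6 counts per cyclopamine library. The other two targets did not pass, foxa2 at -0.16 ± 0.16 and nkx6-2 at 0.28 ± 0.11 (edgeR adjusted p = 0.0931).

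None of the 6 measured release and co-receptor genes passed with cyclopamine. They ran from gpc3 at -0.09 ± 0.26 to lrp2 at 0.53 ± 0.20 (edgeR adjusted p = 0.0839), and scube1, the relative of scube2, was at 0.29 ± 0.23. Of 20 cytoplasmic and ciliary regulators 4 fell: btrc (-0.59 ± 0.14), whose product tags proteins for breakdown, the protein kinase A subunit prkacb (-0.39 ± 0.11), the receptor kinase grk3 (-0.56 ± 0.16) and sap18 (-0.48 ± 0.12). The calls of nkx6-1, btrc, prkacb, grk3 and sap18 were each lost without DMSO replicate 1, without DMSO replicate 2 and without cyclopamine replicate 3, and with cyclopamine replicates 2 and 3 both left out, with adjusted p of up to 0.269, 0.34, 0.325, 0.428 and 0.337. Those of nkx6-1, prkacb and grk3 were also lost with relative log expression scaling, with the 5 CPM filter and with limma, that of sap18 with the 5 CPM filter, and each but that of btrc without at least 1 further library.

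With estradiol 3 of the 35 fell, where 0.833% of all genes did. They were the ventral factors nkx2-2 (-1.48 ± 0.15), nkx2-1 (-1.90 ± 0.24) and olig2 (-0.82 ± 0.13, lost without DMSO replicate 1 or 3, adjusted p up to 0.0838). The remaining targets did not pass in edgeR: ptch1 stood at -0.28 ± 0.12, hhip at 0.13 ± 0.26, gli1 at 0.19 ± 0.21, foxa2 at 0.05 ± 0.16, nkx6-1 at -0.31 ± 0.12 and nkx6-2 at 0.15 ± 0.11. Directly against cyclopamine, 4 of the 35 were higher with estradiol, where 4.16% of all genes were, namely gli1 (6.25 ± 0.32), hhip (4.46 ± 0.34), ptch1 (1.21 ± 0.12) and sap18 (0.53 ± 0.12). The sap18 call was lost without estradiol replicate 1 or 3, without any 1 of the cyclopamine replicates, with the replicate number as a block, in a fit of only the 2 groups and with cyclopamine replicates 2 and 3 both left out (adjusted p up to 0.393). The plot of pathway genes by drug sets these side by side.

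**Figure D5:**
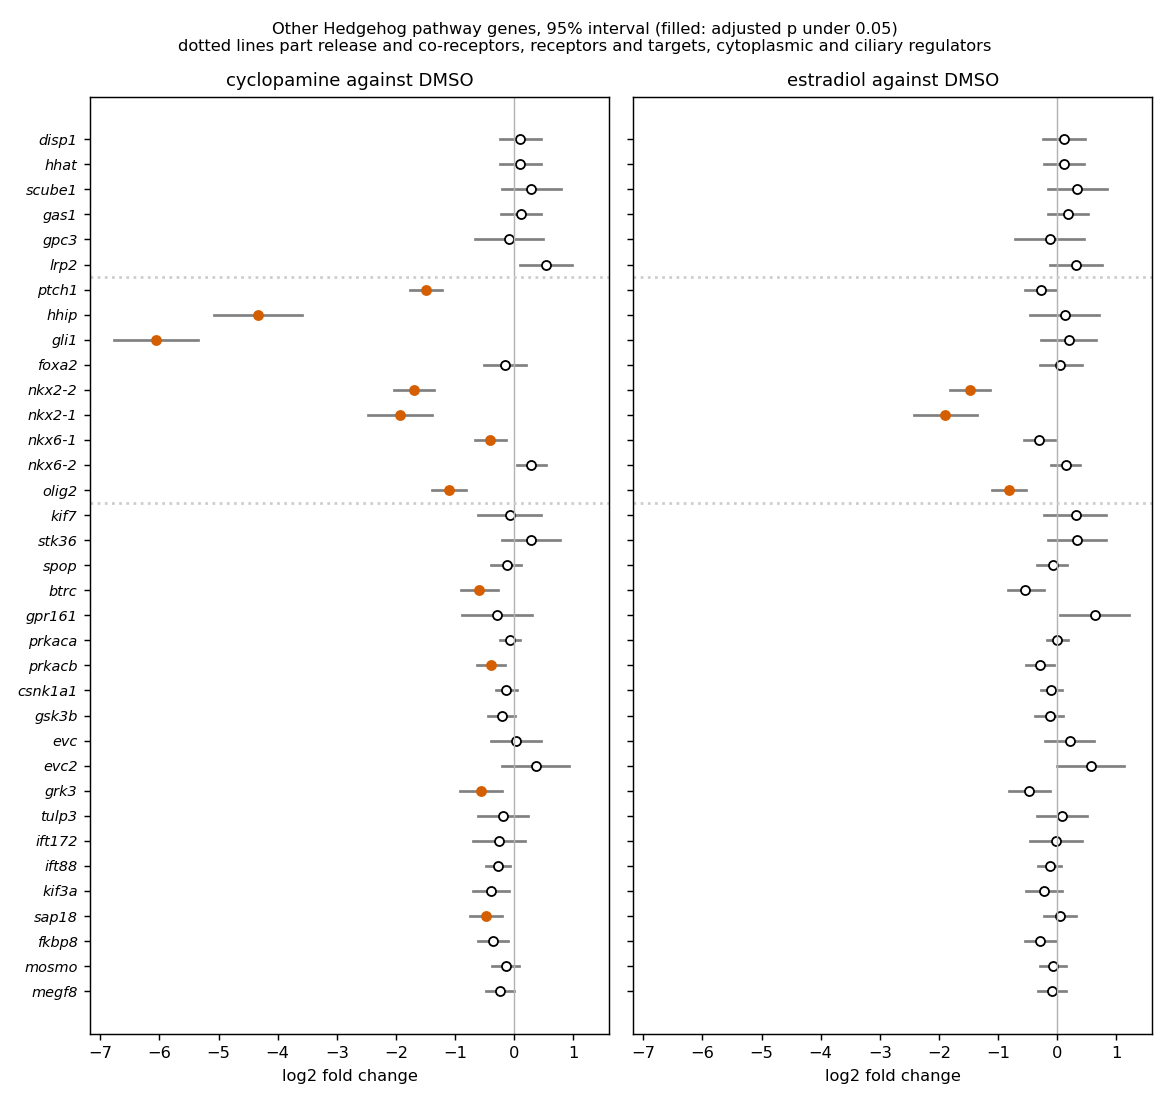
Log2 fold change (horizontal axis) with 95% interval of 35 other Hedgehog pathway genes in cyclopamine and in estradiol against DMSO, in 3 groups parted by dotted lines; filled points passed the edgeR test. With cyclopamine the fall is largest for gli1 (-6.06) and hhip (-4.33) in the middle group, and with estradiol the filled points are nkx2-2, nkx2-1 and olig2.

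From stage 40 to 47, 23 of the 35 pathway genes fell and 6 rose, where 40.8% and 40% of all genes did. The release and co-receptor genes split: gpc3, a heparan sulfate proteoglycan, rose from 0.902 to 12.1 CPM (3.77 ± 0.20) and the ligand acyltransferase hhat rose (0.78 ± 0.14), while the ligand transporter disp1 (-1.06 ± 0.08), gas1 (-0.64 ± 0.06) and scube1 (-0.42 ± 0.10) fell. Among receptors and targets hhip rose (0.59 ± 0.11) and ptch1 did not pass (0.12 ± 0.08, edgeR adjusted p = 0.166). The other 7 fell: gli1 (-0.60 ± 0.10), foxa2 (-0.59 ± 0.11), nkx2-2 (-0.59 ± 0.10), nkx2-1 (-0.98 ± 0.16), nkx6-1 (-0.59 ± 0.08), nkx6-2 (-0.86 ± 0.09) and olig2 (-0.30 ± 0.10, lost without stage 40 replicate 1 or stage 47 replicate 2, with the 5 CPM filter and with limma, adjusted p up to 0.0957).

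The regulator that fell most was gpr161, a ciliary receptor that holds the pathway off in mouse. Its mean was 42.2 ± 3.12 CPM at stage 40, 28.4 ± 2.18 at stage 45, 15.6 ± 0.755 at stage 46 and 5.5 ± 0.121 at stage 47, a fall of -2.93 ± 0.09 (edgeR adjusted p = 2.4e-18). It lost most in the last steps, as gli3 did. Other regulators that fell were sap18 (-1.55 ± 0.08), stk36 (-1.34 ± 0.12), the ciliary kinesin kif7 (-1.03 ± 0.16), tulp3 (-0.83 ± 0.09), mosmo (-0.75 ± 0.08), ift88 (-0.66 ± 0.08), gsk3b (-0.63 ± 0.09), evc (-0.57 ± 0.09), ift172 (-0.42 ± 0.13, lost without stage 40 replicate 3 at an adjusted p of 0.1), btrc (-0.40 ± 0.06), prkaca (-0.40 ± 0.05) and csnk1a1 (-0.38 ± 0.04). The 3 that rose were fkbp8 (0.88 ± 0.07), grk3 (0.50 ± 0.10) and the kinesin subunit kif3a (0.27 ± 0.06).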

How the data were processed

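RNA-seq libraries of tadpole brains were grouped by their labels alone. The labels' protocols give polyA selection and stranded library preparation. The authors deposited raw read counts per gene for each table, aligned with STAR 2.7.3 per the submitters' processing notes. The sources used here do not name the genome build, the annotation, the counter or how strand was used, so reads of a gene and an overlapping or antisense gene cannot be told apart, and no coordinates or sequences are given. The deposited values on a log2 scale, which from the values themselves are log2(CPM + 1) after full-quantile normalization, were used for 1 alternative. Every deposited gene reached 1 CPM in at least 3 libraries, so low genes had been removed before deposit.

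Each table was fitted whole and separately in edgeR 4.0.16 (R 4.3.3) with TMM factors, filterByExpr (which removed 0 genes), group means and the robust quasi-likelihood F-test, with Benjamini-Hochberg adjustment over all genes. Levels are CPM. No level was tested across tables. Intervals of 95% are from the same fit, and counting error takes reads as independent, which reads without molecular identifiers are not. The script was tested on simulated data. Alternatives used DESeq2 1.42.0, limma 3.58.1, relative log expression factors, other filters, a replicate block, 2-group fits and libraries left out.

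Members, pathway and marker lists were chosen with earlier results of these data known. Named were all 9 members, pathway genes that were called or are targets, and the 3 genes most like each of 5 members, at a mean of at least 1 log2 CPM with a prior count of 2. One further pathway gene is not reported here and is in none of the counts.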

Additional observations from a re-analysis of the deposited data

How the results depend on the processing

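The 7 members called between stages 40 and 47 stayed called, in the same direction, in all 90 fits that tested them, and the differences of the gli3 to gli2 ratio kept their direction with another prior count and without each library in turn. Smaller contrasts depended on single libraries, and so did the number of calls over all genes. With 1 library left out, that number went from 3171 to between 1127 and 2633 for cyclopamine against DMSO. For estradiol against DMSO it went from 335 to between 27 (without DMSO replicate 1) and 1510 (without estradiol replicate 2). Between the drugs it went from 1097 to between 444 and 1482. For cyclopamine against DMSO the count of members called was 2, and 3 in the fit of only these groups (with gli2) and with cyclopamine replicate 1 alone (with shh). It ran from 0 (without DMSO replicate 1 or 2) to 3 (without cyclopamine replicate 3, with shh) when 1 library was left out. For estradiol against DMSO it was 0, and 1 with DESeq2, and ran from 0 to 1 with 1 library left out. For estradiol against cyclopamine it was 0 but 2 with DESeq2, 1 with the replicate block and 1 where cyclopamine was left with replicate 1, and ran from 0 to 2 with 1 library left out. For stage 44 against 42 it was 0, and 1 with the 5 CPM filter and with DESeq2, and ran from 0 to 1. For stage 45 against 44 it was 4, and ran down to 2. For stage 46 against 45 it was 1, and 2 in the fit of only these groups, and ran from 1 to 2. Where no cause is given, the cause was not tested.

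Several differences that were never called changed sign. For cyclopamine against DMSO, ihh was -0.18 with limma and ran from -0.02 to 0.40 with 1 library left out, dhh ran from -0.42 to 0.23 (0.20 without DMSO replicate 1) and was 0.04 with cyclopamine replicate 1 alone, sufu ran from -0.13 to 0.02 and was 0.16 with replicate 1 alone, and gli3 was 0.01 with limma and 0.19 with replicate 1 alone. For estradiol against DMSO, ihh was -0.07 with limma, and gli2 ran from -0.06 (without estradiol replicate 3) to 0.39. For estradiol against cyclopamine, shh was -0.12 without estradiol replicate 3, ran down to -0.17 without cyclopamine replicate 3 and was -0.31 with cyclopamine replicate 1 alone, and ihh ran from -0.12 to 0.31.

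No clear pairing of libraries by equal replicate number was seen, but this check cannot exclude a shared clutch or day. Deviations of same-numbered libraries from their group means had a median correlation of 0.084 in the drug table (over 0.1 in 2 of 9 pairs) and of -0.0106 in the time course (2 of 45 pairs). For libraries with other numbers the medians were 0.0399 (4 of 18 pairs) and 0.00174 (13 of 90 pairs). With the replicate block the counts of members called were 2, 0 and 1 in the drug contrasts as ordered above, 7 for stage 47 against 40 and 8 for any difference among stages. Depth limits ihh, and dhh at early stages, since both rest on few counts.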

Other observations

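The tables hold 2 kinds of stage 46 brain that were scaled separately, so they were not tested against each other and their levels are given side by side only. Untreated stage 46 libraries had shh at 34.7, 30.1 and 31.8 CPM, and DMSO libraries had it at 47.6, 45.5 and 45.3 CPM. For gli3 the untreated values were 83.6, 78.7 and 80.4 CPM and the DMSO values 69.1, 60.4 and 62.1 CPM. For cdon they were 54.6, 53.6 and 50.1 CPM untreated and 59.7, 59.6 and 60 CPM in DMSO. For dhh they were 3.85, 3.11 and 2.47 CPM untreated and 7.78, 3.71 and 5.57 CPM in DMSO. Means of the remaining members, untreated and then DMSO, were 62.5 and 61.9 CPM for smo and 29 and 27.6 CPM for sufu. They were 0.84 and 0.909 CPM for ihh, 50.2 and 43 CPM for scube2, and 23.1 and 18.5 CPM for gli2. The 9 cycling-cell genes summed to between 678 and 860 CPM in untreated stage 46 brains and to between 254 and 303 CPM in DMSO brains of the same labelled stage.

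The spread of dhh between like libraries was larger than counting error in all 3 drug-table groups. Its coefficient of variation was 35.8%, 50.8% and 50.4% in DMSO, estradiol and cyclopamine, where counting error gives 9.56%, 7.02% and 9.15%. In the time course it was between 1.93% and 26.9%, where counting error gives 11% to 18.7%. A spread above counting error was not particular to dhh. For smo it was 6.39%, 32.1% and 16% in DMSO, estradiol and cyclopamine, where counting error gives 2.91%, 2.43% and 3.01%. For cdon it was 0.319%, 24.8% and 13.2%, where counting error gives 2.97%, 2.36% and 2.16%. The summed Schwann cell and nerve markers were at 345, 348 and 334 CPM in DMSO replicates 1, 2 and 3, where dhh was at 7.78, 3.71 and 5.57 CPM. In estradiol they were at 249, 313 and 373 CPM, where dhh was at 3.89, 9.78 and 12.6 CPM. In cyclopamine they were at 364, 305 and 347 CPM, where dhh was at 5.5, 2.56 and 7.92 CPM.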
